A study of Mus musculus with 20 samples.

Results

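The genes described here are 42 cell division genes, 16 that act in or just before S phase and 26 that act in G2 and mitosis, among the 23284 genes listed for each of 20 mouse hearts. They were taken by gene symbol from a named set: the Mcm, Pcna, Rrm, Tyms, Gins, Cdc6, Cdt1, E2f1 and Ccne genes form the S-phase group and the others form the G2 and mitosis group. All 42 symbols were found. The hearts came from C57BL/6 mice of 2 genotypes. Controls carried floxed alleles of Wnt5a, a gene for a secreted Wnt ligand. The CKO mice carried the same floxed alleles with the Myh6-Cre/Esr 1 transgene, in which the promoter of a heart muscle myosin gene drives a Cre recombinase joined to part of the oestrogen receptor, so that recombination is aimed at heart muscle cells and depends on tamoxifen. Each genotype was sampled without an operation when tamoxifen ended, and at 2 or 4 weeks following either sham surgery or TAC. In TAC, or transverse aortic constriction, the aortic arch is tied to a narrower bore and the left ventricle has to pump against a higher pressure. This gave 10 groups of 2 hearts. The labels number each heart separately and give neither age nor sex.

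A cell that divides copies its DNA in S phase and separates the copies in mitosis, with gap phases before and between. Genes for replication are switched on late in G1, mostly through E2F transcription factors. Genes for the spindle, chromosome condensation and cytokinesis are held off in resting cells by the DREAM complex and switched on later by its MuvB core with MYBL2 and FOXM1. Most heart muscle cells of an adult mouse no longer divide, whereas fibroblasts, endothelial cells and leukocytes of the heart can. In whole-heart RNA, fewer cells of a type and less RNA per cell cannot be told apart.

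Gene levels are in FPKM, fragment counts scaled by transcript length and by the number of mapped fragments. Tests used log2(FPKM + 0.5) in limma, fitting 1 mean to every group, with p-values adjusted over all 12589 genes whose mean was at least 0.5 FPKM. A gene was called at an adjusted p under 0.05. The fold of a gene with low FPKM is understated on this scale. The filter kept 37 members, 15 of 16 for S phase and 22 of 26 for G2 and mitosis. Cdc6, Ccnb1, Bub1, Ttk and Ect2 did not pass, and Aurkb and Plk1 passed only through the 2 CKO hearts taken 2 weeks after TAC. Cep55, Kif11, Kif23 and Anln had means of 0.422, 0.426, 0.414 and 0.489 FPKM in the 12 hearts without TAC. They were thus tested only through TAC hearts. Counts over all 42 members are therefore also given from a fit with no filter. How many fragments each library held is unknown. Relative depth, from the steps between low values, ran from 0.877 to 1.21 of the mean heart. Esr1, part of which is in the transgene, was 197 to 931 FPKM in CKO hearts and at most 0.465 FPKM in controls. Wnt5a was 1.59 to 4.11 FPKM in controls and 0.853 to 2.33 FPKM in CKO hearts, so these ranges overlapped. The labels do not say which exons are floxed. Myl7, an atrial myosin light chain gene, was at least 10 FPKM in hearts 11, 14, 16, 21 and 24 and at most 1.66 FPKM in the other 15.

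In the 12 hearts without TAC the 42 genes differed widely in level per length. Pcna, the sliding clamp of the replication fork (chr2:132249162-132253314, mm10), was highest at a median of 15.8 FPKM, followed by Rrm1, the large subunit of ribonucleotide reductase, at 6.82 FPKM. The next was Cenpf, a large kinetochore protein gene, at 3.76 FPKM, the highest of the G2 and mitosis genes. Mcm2, Mcm3, Mcm4, Mcm6 and Mcm7, subunits of the replicative helicase, had medians of 2.61 to 3.55 FPKM, and Mcm5, the remaining subunit, 1.33 FPKM. Mki67, the gene of the Ki-67 antigen that coats mitotic chromosomes, stood at 0.993 FPKM with a range of 0.420 to 1.18 FPKM. The lowest was Ccnb1, the cyclin B1 gene, with a median of 0.0657 FPKM. It was listed at 0 in hearts 7, 14 and 16. At mean depth 1 fragment of Ccnb1 is worth 0.0617 FPKM, so its level in these hearts rests on 0 to a few fragments.

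**Figure D1:**
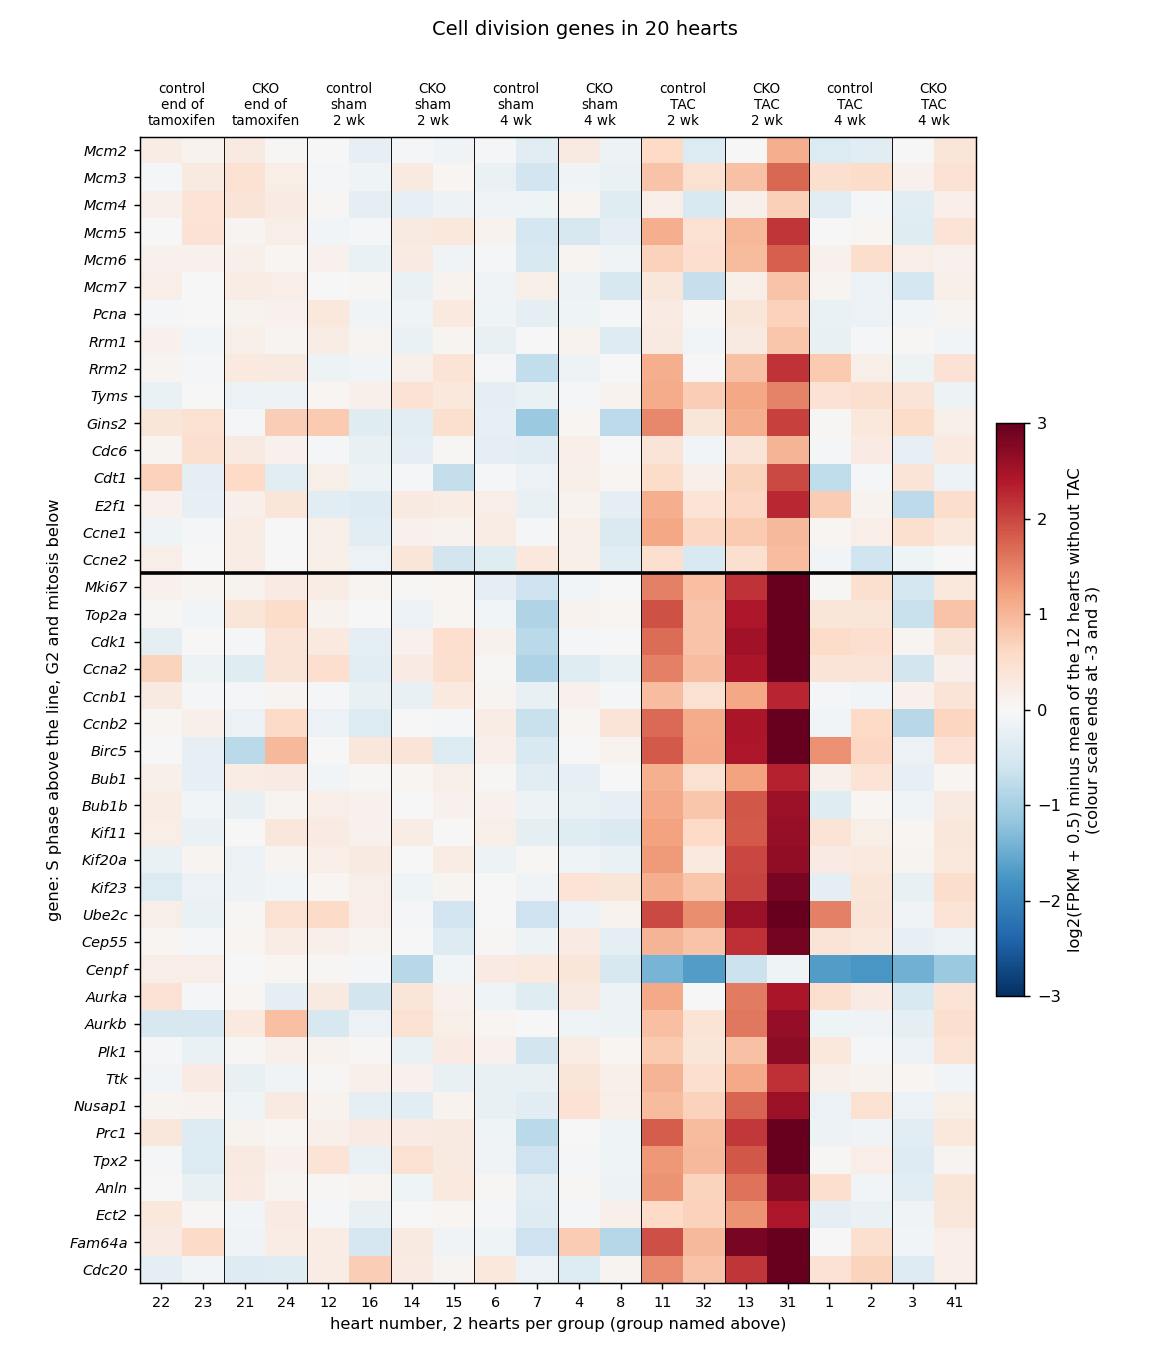
Each cell gives log2(FPKM + 0.5) of 1 gene (vertical axis) in 1 heart (horizontal axis, heart number, with its group named above), minus the mean of the 12 hearts without TAC; red is higher and blue is lower, and the scale ends at -3 and 3. The red block under hearts 13 and 31 covers 25 of the 26 G2 and mitosis genes, a paler one lies under hearts 11 and 32, and the Cenpf row is blue in most hearts with TAC.

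At 2 weeks after TAC, the G2 and mitosis genes were higher in CKO hearts than after sham nearly throughout. Of 22 tested, 21 rose and 0 fell, with a median log2 difference of 2.46 against -0.00 over all genes tested. Over all 12589 genes 10% were called higher and 9.21% lower in this comparison. With no filter, 25 of all 26 rose, beside 12.8% of all genes called in either direction. The gene that was not called was Cenpf.

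Ube2c, the ubiquitin-conjugating enzyme of the anaphase-promoting complex, was 1.09 and 0.605 FPKM in sham hearts 14 and 15. After TAC it was 9.42 FPKM in heart 13 and 23.0 FPKM in heart 31, a log2 difference of 3.52 ± 0.42 (SE; limma adjusted p = 0.000345). Heart 31 was the higher TAC heart. On the opposite strand the annotation has Tnnc2 overlapping Ube2c, and although the library kit keeps strand, whether the authors' counting used it is not stated in the labels or processing notes. Top2a, the topoisomerase that untangles sister chromatids (chr11:98992943-99024189), went from 0.737 and 0.960 FPKM in the sham hearts to 7.01 and 16.4 FPKM, a difference of 3.07 ± 0.47 (limma adjusted p = 0.00108). Fam64a, named Pimreg in the annotation and described as a mitotic regulator, was 1.05 and 0.695 FPKM after sham and 8.73 and 14.7 FPKM after TAC (3.12 ± 0.46, limma adjusted p = 0.000964). Birc5, the survivin gene of the chromosomal passenger complex, was 1.38 and 0.572 FPKM after sham and 7.23 and 17.2 FPKM after TAC (3.04 ± 0.53, limma adjusted p = 0.00212). These genes were named for the size of their called differences, so the separation of their TAC and sham hearts is no separate result.

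Mki67 (chr7:135689784-135716361) was 0.963 and 0.989 FPKM in the sham hearts and 5.85 and 12.1 FPKM in the TAC hearts, a log2 difference of 2.60 ± 0.33 (limma adjusted p = 0.000398). Cdk1, the kinase that drives entry into mitosis, was 0.945 and 1.37 FPKM after sham and 7.07 and 11.5 FPKM after TAC (2.53 ± 0.34, limma adjusted p = 0.000623). The order of the hearts was again sham, then heart 13, then heart 31. Ccnb1, its cyclin partner, was 0 and 0.207 FPKM after sham and 0.793 and 2.32 FPKM after TAC, with a limma adjusted p of 0.00394 in the fit with no filter, where the log2 difference was 1.68 ± 0.29. The smallest adjusted p of all members belonged to Cep55, which acts in the last cut between daughter cells. It was 0.424 and 0.201 FPKM after sham and 3.67 and 6.16 FPKM after TAC (2.71 ± 0.25, limma adjusted p = 4.54e-05). Cep55 was tested only through TAC hearts. The other called genes, among them those for the motor proteins Kif11, Kif20a and Kif23, the checkpoint kinase Bub1b and the kinases Aurka, Aurkb and Plk1, lay between 1.75 and 2.94.

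All 26 genes were higher in heart 31 than in heart 13, by a median of 0.98 on the log2 scale. All 16 S-phase genes were also higher in heart 31, by a median of 0.76. Without heart 31 the median of the 22 tested G2 and mitosis genes was 1.93. A fit of the 4 hearts of this comparison alone called 0 of 22 in limma and 15 of all genes. At an unadjusted p under 0.05 were 21 of the 22 in that fit, and the count over all genes at that level is not given here. These 2 hearts also had the lowest Esr1 of the CKO hearts, 197 FPKM in heart 13 and 395 FPKM in heart 31 against 529 to 931 FPKM in the other 8; its part in the result was not tested.

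The S-phase genes moved the same way, by less. Of 15 tested, 8 rose and 0 fell, with a median log2 difference of 0.96; with no filter 7 of all 16 rose and the median was 0.89. Cdt1, which loads the helicase onto origins, was 0.665 and 0.220 FPKM after sham and 1.39 and 4.19 FPKM after TAC (1.70 ± 0.46, limma adjusted p = 0.0204). Gins2, a subunit of the active helicase, was 0.645 and 1.52 FPKM after sham and 2.59 and 5.49 FPKM after TAC (1.50 ± 0.50, limma adjusted p = 0.0490), and its call was lost in 6 of 8 other settings and without heart 14, 15 or 31. Both genes were at their highest in heart 31.

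Among the 6 helicase subunits, Mcm3, Mcm5 and Mcm6 were called and Mcm2, Mcm4 and Mcm7 were not. Mcm6 (chr1:128331590-128359664) was 4.07 and 3.08 FPKM after sham and 6.92 and 12.9 FPKM after TAC (1.30 ± 0.24, limma adjusted p = 0.00308). Mcm5 was 1.64 and 1.72 FPKM after sham and 3.05 and 7.44 FPKM after TAC (1.28 ± 0.35, limma adjusted p = 0.0226). Mcm3 was 3.35 and 2.83 FPKM after sham and 5.35 and 9.95 FPKM after TAC (1.13 ± 0.24, limma adjusted p = 0.00617). The differences of the uncalled subunits were 0.61 for Mcm2, 0.64 for Mcm4 and 0.55 for Mcm7, and whether they differ from those of the called subunits was not tested.

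Ccne1, the cyclin E1 gene of the G1 to S transition, was 0.679 and 0.667 FPKM after sham and 1.37 and 1.63 FPKM after TAC (0.76 ± 0.25, limma adjusted p = 0.0492), and was no longer called when any 1 of the 4 hearts was left out. Its paralog Ccne2 was 1.39 and 0.516 FPKM after sham and 1.58 and 2.32 FPKM after TAC and was not called (0.81 ± 0.36, limma adjusted p = 0.134). Pcna was not called either, at 14.7 and 19.7 FPKM after sham and 20.8 and 26.1 FPKM after TAC (0.44 ± 0.16, limma adjusted p = 0.0626). The S-phase calls were less stable than the mitotic ones when 1 of the 4 hearts was left out. Fewer were called without TAC heart 31 or without sham heart 14 or 15, and more without TAC heart 13. Each such fit leaves 1 heart in a group, and its calls over all genes are not given here. A fit of only the 4 hearts called 0 of 15 in limma, with 9 at an unadjusted p under 0.05. The count over all genes at that unadjusted level is not given here.

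**Figure D2:**
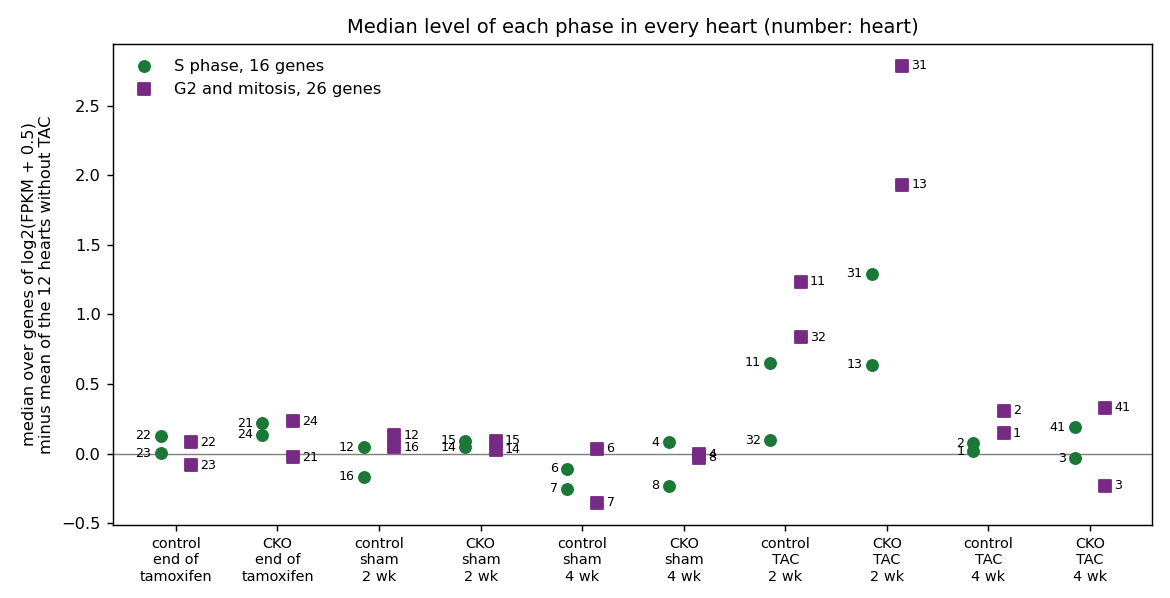
Each point is 1 heart, labelled with its number; the vertical axis is the median over the 16 S-phase genes (circles) or the 26 G2 and mitosis genes (squares) of log2(FPKM + 0.5) minus the mean of the 12 hearts without TAC. Hearts 31 and 13 stand at 2.79 and 1.93 for G2 and mitosis, hearts 11 and 32 at 1.24 and 0.84, and the hearts taken 4 weeks after TAC lie between -0.23 and 0.33.

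The bases before the transcription start sites of the members were read from RefSeq (build GRCm38.p6). There 34 of the 42 symbols had at least 1 window of 250 bases before to 50 after the start, 38 windows in all. The members were chosen as known cell cycle genes, so what these windows hold is a trait of the list and not a result of TAC. Letters were searched on both strands. For E2F the letters were TTTCCCGC, TTTGGCGC, TTTCGCGC or TTTGCCGC, for CHR, the cell cycle homology region bound by MuvB complexes, TTTGAA, and for the NF-Y box CCAAT. E2F letters stood in 6 of 14 S-phase windows (42.9%), in 1 of 24 G2 and mitosis windows (4.17%) and in 2.26% of all 32851 windows in the table. CHR letters stood in 20 of 24 G2 and mitosis windows (83.3%), in 1 of 14 S-phase windows (7.14%) and in 17.9% of all. CCAAT stood in 79.2% of the G2 and mitosis windows, 64.3% of the S-phase windows and 37.4% of all.

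By gene, 17 of the 21 G2 and mitosis genes with a window held CHR letters, all but Birc5, Bub1, Ccnb1 and Nusap1. Cdk1 was the only one of these with E2F letters. Of the 13 S-phase genes with a window 6 held E2F letters, all but Ccne1, E2f1, Mcm2, Pcna, Rrm1, Rrm2 and Tyms. Cenpf, which did not move with the others, held CHR and CCAAT letters as 14 other G2 and mitosis genes did. A match is a string of letters and not a measured site. The stretches of 4 genes follow, as the members with the largest differences in CKO hearts 2 weeks after TAC that hold the letters of their phase before the start. Cdt1 holds E2F letters only after it. Each is written 5′ to 3′ on the strand of its gene, with E2F letters in capitals for Mcm6 and Mcm5, and CHR and CCAAT letters, read on either strand, in capitals for Ube2c and Top2a. The Mcm6 stretch is chr1:128359706-128359955 on the minus strand, the Mcm5 stretch chr8:75109259-75109508 on the plus strand, the Ube2c stretch chr2:164769679-164769905 on the plus strand, of which the last 8 bases lie in an exon of the GENCODE annotation, and the Top2a stretch chr11:99024190-99024439 on the minus strand.
Mcm6: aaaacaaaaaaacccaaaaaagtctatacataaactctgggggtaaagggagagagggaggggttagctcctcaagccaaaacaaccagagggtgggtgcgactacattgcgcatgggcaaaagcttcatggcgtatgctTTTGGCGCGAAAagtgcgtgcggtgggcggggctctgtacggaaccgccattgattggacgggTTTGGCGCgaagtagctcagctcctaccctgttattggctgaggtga
Mcm5: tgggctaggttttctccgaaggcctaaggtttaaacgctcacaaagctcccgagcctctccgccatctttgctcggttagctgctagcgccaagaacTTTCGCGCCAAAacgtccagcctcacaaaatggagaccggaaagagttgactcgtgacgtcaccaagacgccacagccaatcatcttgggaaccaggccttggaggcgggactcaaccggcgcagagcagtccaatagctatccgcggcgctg
Ube2c: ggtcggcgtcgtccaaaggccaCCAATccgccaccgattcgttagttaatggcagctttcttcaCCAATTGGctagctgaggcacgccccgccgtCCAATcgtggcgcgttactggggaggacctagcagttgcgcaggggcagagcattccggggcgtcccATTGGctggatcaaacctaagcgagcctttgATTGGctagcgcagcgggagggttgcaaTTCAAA
Top2a: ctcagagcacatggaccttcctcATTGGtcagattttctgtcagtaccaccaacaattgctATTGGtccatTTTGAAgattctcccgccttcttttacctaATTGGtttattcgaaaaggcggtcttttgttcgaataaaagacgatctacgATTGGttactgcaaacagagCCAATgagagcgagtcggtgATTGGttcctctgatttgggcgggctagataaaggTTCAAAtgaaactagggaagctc
The capitals show 3 E2F matches for Mcm6, 2 of which overlap on opposite strands, and 2 overlapping ones for Mcm5. Ube2c has 1 CHR and 6 CCAAT matches and Top2a 2 CHR and 6 CCAAT matches. The CHR letters of Ube2c lie within its GENCODE exon bases, so they stand before the RefSeq start but not before the GENCODE start. CCAAT also occurs 2 times each in the Mcm6 and Mcm5 stretches, left in lower case.

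**Figure D3:**
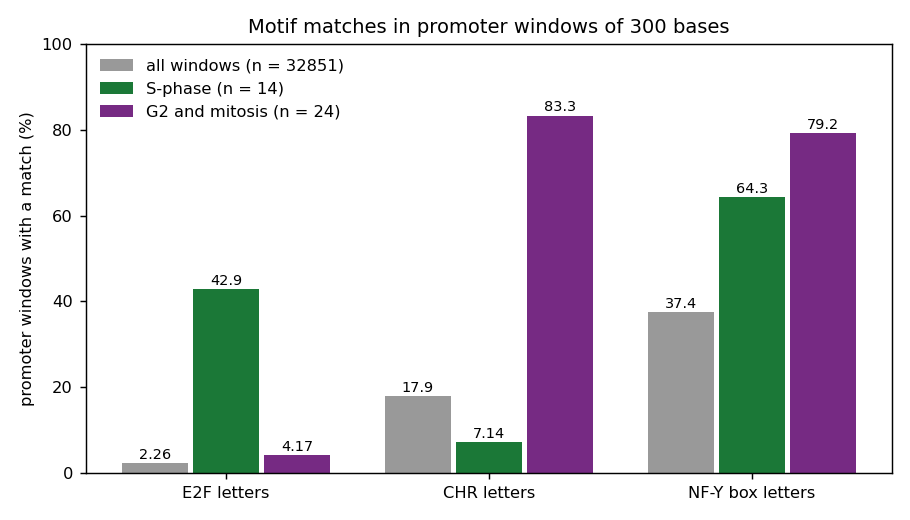
Bars give the percentage of promoter windows (vertical axis, from 0) that hold at least 1 match to the letters of each motif (horizontal axis), for all 32851 windows in grey, 14 windows of S-phase genes in green and 24 windows of G2 and mitosis genes in purple. E2F letters are most frequent in S-phase windows at 42.9% and CHR letters in G2 and mitosis windows at 83.3%.

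In control hearts 2 weeks after TAC, part of the G2 and mitosis group was higher than after sham. Of the 22 tested G2 and mitosis genes 10 rose and 1 fell, with a median log2 difference of 0.97, and of the 15 S-phase genes 3 rose and 0 fell, with a median of 0.63. Over all genes 11.0% were called higher and 12.8% lower, with a median of -0.00. With no filter, 7 of all 26 G2 and mitosis genes rose and 1 fell, and 2 of all 16 S-phase genes rose. In that fit 16.0% of all genes were called in either direction, a share that the S-phase count does not exceed.

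Ccnb2, the cyclin B2 gene, was 0.632 and 0.476 FPKM in sham hearts 12 and 16 and 3.68 and 2.28 FPKM in TAC hearts 11 and 32 (1.70 ± 0.46, limma adjusted p = 0.0169). Fam64a was 1.00 and 0.403 FPKM after sham and 4.37 and 2.02 FPKM after TAC (1.59 ± 0.46, limma adjusted p = 0.0244). Ube2c was 1.94 and 1.40 FPKM after sham and 5.99 and 3.86 FPKM after TAC (1.30 ± 0.42, limma adjusted p = 0.0389). Heart 11 was the higher TAC heart in each of these genes. They were named for large called differences, so the separation of their TAC and sham hearts is no separate result. Cdk1 was 1.11 and 0.574 FPKM after sham and 3.70 and 1.91 FPKM after TAC (1.28 ± 0.34, limma adjusted p = 0.0157). Mki67 was 1.15 and 1.00 FPKM after sham and 3.54 and 2.15 FPKM after TAC (1.05 ± 0.33, limma adjusted p = 0.0308). Top2a, at 1.01 and 0.886 FPKM after sham and 4.79 and 2.05 FPKM after TAC, just missed the threshold and was not called (1.34 ± 0.47, limma adjusted p = 0.0507). Ccnb1 was 0.0666 and 0 FPKM after sham and 0.610 and 0.301 FPKM after TAC (0.83 ± 0.29 and limma adjusted p = 0.0769 in the fit with no filter).

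The called S-phase genes were Ccne1, Tyms and Mcm3. Ccne1 (chr7:38097984-38107534) was 0.723 and 0.363 FPKM after sham and 1.94 and 1.16 FPKM after TAC (0.97 ± 0.25, limma adjusted p = 0.0135). Tyms, thymidylate synthase, was 0.665 and 0.742 FPKM after sham and 1.92 and 1.34 FPKM after TAC (0.81 ± 0.21, limma adjusted p = 0.0136). Mcm3 was 2.62 and 2.42 FPKM after sham and 5.28 and 3.88 FPKM after TAC (0.74 ± 0.24, limma adjusted p = 0.0371). Because these 3 genes were named for their calls, the separation of TAC from sham hearts adds nothing to the calls. Pcna was nearly level, at 20.2 and 14.8 FPKM after sham and 19.1 and 16.4 FPKM after TAC (0.03 ± 0.16, limma adjusted p = 0.908). Ccne2 was 1.17 and 0.798 FPKM after sham and 1.60 and 0.579 FPKM after TAC, with overlap (0.03 ± 0.36, limma adjusted p = 0.965).

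These control calls changed when single hearts were left out, which leaves 1 heart in a group. Calls over all genes in those fits are not given here. Hearts 11 and 16 are among the 5 with atrial Myl7, at 72.6 and 32.2 FPKM, and all 16 S-phase genes and 25 of 26 G2 and mitosis genes were higher in heart 11 than in heart 32. Without heart 11 limma called 0 of the 15 S-phase genes (3 at an unadjusted p under 0.05) and 1 of the 22 G2 and mitosis genes, which is Cenpf, and the medians were 0.14 and 0.75. Without heart 16 the counts were the same, and without sham heart 12 they were 1 and 5. With all 4 hearts, 21 of the 22 tested G2 and mitosis genes had a positive difference, all but Cenpf. Over the 26 G2 and mitosis genes, the median log2 difference of heart 32 from the mean of the 12 hearts without TAC was 0.84. Over the 16 S-phase genes it was 0.09.

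**Figure D4:**
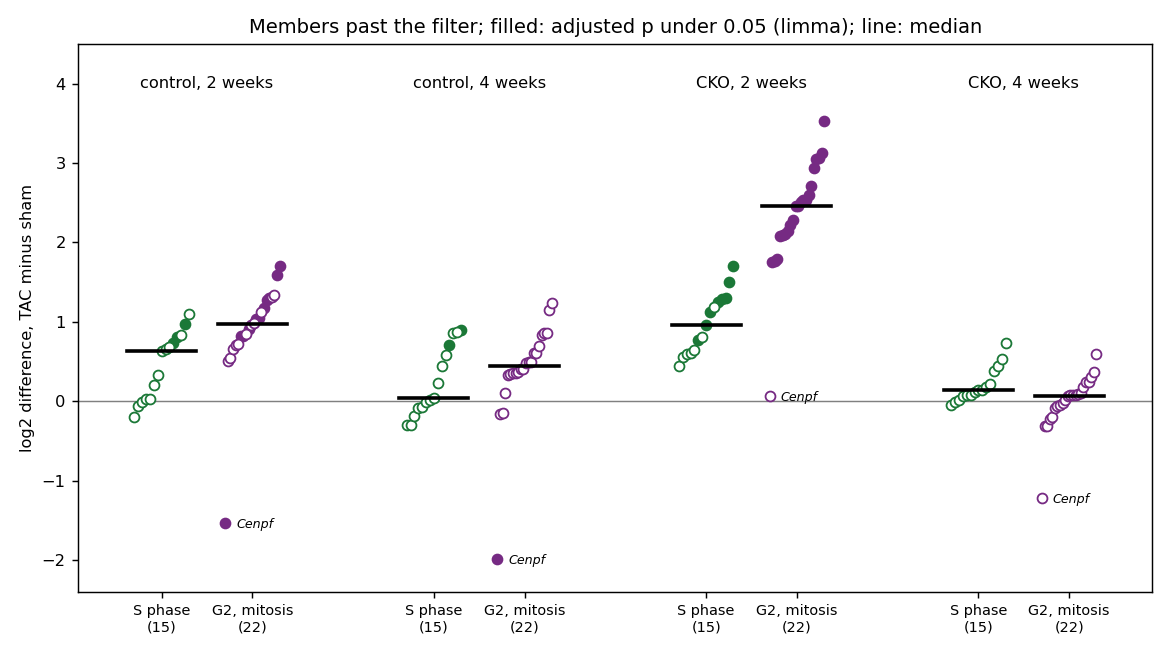
Each point is 1 member gene past the filter; the vertical axis is its log2 difference, TAC minus sham, on the log2(FPKM + 0.5) scale, for 15 S-phase genes (green) and 22 G2 and mitosis genes (purple) in each genotype and at each time. Filled points have a limma adjusted p under 0.05 and lines are medians, which are highest for G2 and mitosis genes in CKO hearts at 2 weeks, at 2.46; Cenpf is named because it lies apart.

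Cenpf (chr1:189640606-189688086), whose protein links kinetochores to microtubules, went the other way. It was 3.74 and 3.51 FPKM in control sham hearts 12 and 16 and 1.07 and 0.790 FPKM in control TAC hearts 11 and 32 at 2 weeks, a log2 difference of -1.53 ± 0.27 (limma adjusted p = 0.0013). At 4 weeks it was 4.40 and 4.55 FPKM in control sham hearts 6 and 7 and 0.778 and 0.731 FPKM in TAC hearts 1 and 2, a log2 difference of -1.99 ± 0.27 (limma adjusted p = 0.000554). In controls the 4 TAC hearts thus lay below all 12 hearts without TAC, whose lowest was 1.83 FPKM in heart 14. Both falls were called in each of the 8 other settings that kept the gene and without any 1 of the 4 hearts compared.

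In CKO hearts at 2 weeks Cenpf was 1.83 and 3.36 FPKM after sham and 2.11 and 3.29 FPKM after TAC, with overlap and no call (0.07 ± 0.27, limma adjusted p = 0.891). At 4 weeks it was 4.80 and 2.45 FPKM in CKO sham hearts 4 and 8 and 1.02 and 1.41 FPKM in TAC hearts 3 and 41. These did not overlap, and both TAC hearts lay below all 12 hearts without TAC, as in controls. The difference missed the threshold (-1.22 ± 0.27, limma adjusted p = 0.0786). The CKO hearts at 2 weeks were the ones in which the other G2 and mitosis genes were highest. Cenpf is overlapped on the opposite strand by the predicted gene Gm37239.

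**Figure D5:**
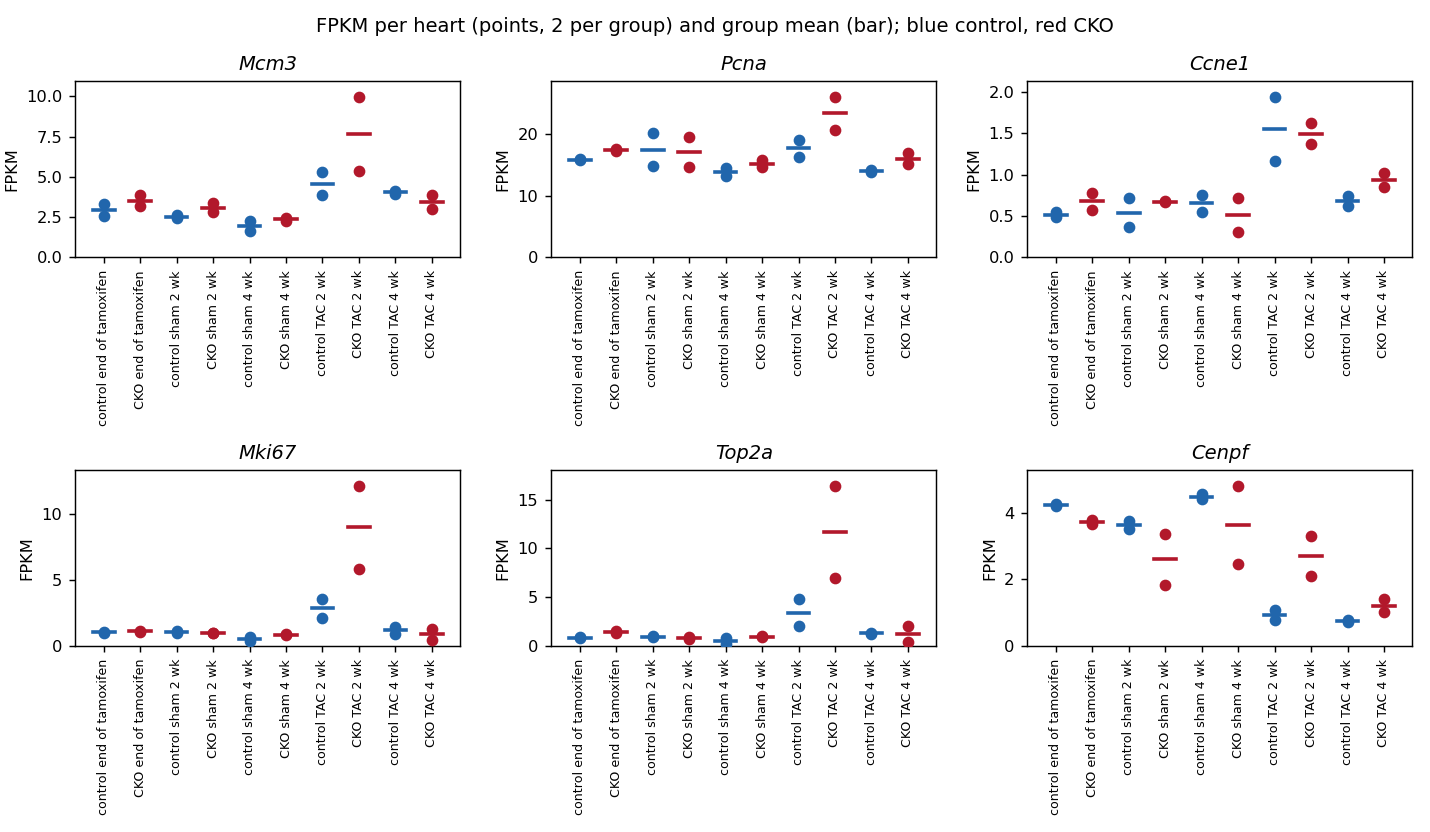
Points are FPKM (vertical axes, from 0) of 6 members in each heart, 2 per group, bars are group means, and groups are named under each panel, controls in blue and CKO in red. Mki67 and Top2a peak in CKO hearts 2 weeks after TAC, at 5.85 and 12.1 and at 7.01 and 16.4 FPKM. Cenpf is at 0.731 to 1.07 FPKM in the 4 control TAC hearts and at 1.02 and 1.41 FPKM in the CKO hearts 4 weeks after TAC.

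At 4 weeks after TAC few members differed from sham in controls. In the S-phase group 2 of 15 rose and 0 fell (median 0.04). In the G2 and mitosis group 0 of 22 rose and 1 fell, Cenpf (median 0.44). At an unadjusted p under 0.05 in limma were 4 of these 22, beside 3536 of all 12589 genes. In this comparison 6.36% of all genes were called higher and 6.37% lower. With no filter the counts called were the same, beside 7.90% of all genes called in either direction. Mcm3 was 2.25 and 1.65 FPKM after sham and 3.94 and 4.15 FPKM after TAC (0.90 ± 0.24, limma adjusted p = 0.0247), and was no longer called without heart 1, 2 or 7, with only the groups compared, or without the hearts with Myl7. Tyms was 0.403 and 0.461 FPKM after sham and 0.992 and 1.05 FPKM after TAC (0.71 ± 0.21, limma adjusted p = 0.0440), and was called in none of the fits without 1 of the 4 hearts. Both genes were named for their calls, so the separation of TAC from sham hearts adds nothing to them. Mki67, at 0.684 and 0.420 FPKM after sham and 0.943 and 1.47 FPKM after TAC, was not called (0.69 ± 0.33, limma adjusted p = 0.182), nor were Cdk1 (0.86 ± 0.34, limma adjusted p = 0.117) and Top2a (0.86 ± 0.47, limma adjusted p = 0.253). Sham heart 7 had the lowest median of the G2 and mitosis genes of the 12 hearts without TAC, at -0.35. Ccnb1 (0.01 ± 0.29 with no filter), Pcna (0.02 ± 0.16), Ccne1 (0.04 ± 0.25) and Ccne2 (-0.30 ± 0.36) were not called.

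In CKO hearts 4 weeks after TAC limma called 0 of the 15 S-phase genes (0 at an unadjusted p under 0.05) and 0 of the 22 G2 and mitosis genes (1 at an unadjusted p under 0.05), with medians of 0.14 and 0.07. Over all 12589 genes 0.151% were called higher and 0.111% lower, and 1601 genes were at an unadjusted p under 0.05. Mki67 was 0.836 and 0.909 FPKM in the sham hearts and 0.481 and 1.28 FPKM in TAC hearts 3 and 41 (-0.05 ± 0.33, limma adjusted p = 0.969). Top2a was 1.00 and 0.948 FPKM after sham and 0.385 and 2.04 FPKM after TAC (0.02 ± 0.47, limma adjusted p = 0.994). The TAC hearts lay on both sides of the sham hearts, and 25 of the 26 G2 and mitosis genes were higher in heart 41 than in heart 3. Ccnb1 (0.22 ± 0.29 with no filter), Cdk1 (0.24 ± 0.34), Mcm3 (0.45 ± 0.24), Ccne1 (0.54 ± 0.25), Pcna (0.07 ± 0.16) and Ccne2 (0.02 ± 0.36) were not called.

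The difference between the 2 times was tested within each genotype as the TAC difference at 4 weeks minus that at 2 weeks. In CKO hearts 18 of 37 members were called, all lower at 4 weeks and all in the G2 and mitosis group, while 6.54% of all genes were called. The median was -2.41 for the 22 G2 and mitosis genes and -0.77 for the 15 S-phase genes. Cep55 gave -2.91 ± 0.35 (limma adjusted p = 0.00202) and Kif23 -2.69 ± 0.43 (limma adjusted p = 0.00849), both tested only through TAC hearts. Nusap1, a spindle microtubule protein gene, gave -2.59 ± 0.41 (limma adjusted p = 0.00865). Among the S-phase genes the smallest p was that of Mcm6 (-1.12 ± 0.34, limma adjusted p = 0.0632), followed by Tyms (-0.88 ± 0.30, limma adjusted p = 0.0871) and Cdt1 (-1.71 ± 0.65, limma adjusted p = 0.114). The count of 18 changed when 1 of the 8 hearts was left out, falling most without heart 31 and rising without heart 13. Each such fit leaves 1 heart in a group, and its calls over all genes are not given here. Cep55, Kif23 and Nusap1 were called in all 8 of these fits.

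In controls limma called 0 of 37 members and 0.00794% of all genes for the same change with time. At an unadjusted p under 0.05 were 3 members, beside 1718 of all 12589 genes. The medians were -0.43 for G2 and mitosis and -0.07 for S phase. In G2 and mitosis the smallest p belonged to Bub1b (-0.97 ± 0.36, limma adjusted p = 0.267), Aurkb (-1.15 ± 0.49, limma adjusted p = 0.322) and Ccnb2 (-1.21 ± 0.66, limma adjusted p = 0.436). In S phase they belonged to Ccne1 (-0.93 ± 0.36, limma adjusted p = 0.282), Mcm5 (-0.60 ± 0.50, limma adjusted p = 0.637) and Cdt1 (-0.64 ± 0.65, limma adjusted p = 0.702).

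The TAC differences of the 2 genotypes were then compared with each other. At 2 weeks, CKO minus control was positive for all 22 tested G2 and mitosis genes, between 0.81 and 2.22 with a median of 1.40, and for 14 of 15 S-phase genes, with a median of 0.58. Limma called 0 of these 37 members and 0.0159% of all genes. At an unadjusted p under 0.05 were 19 members, beside 997 of all 12589 genes. Cep55 came nearest at 1.89 (95% interval 1.14 to 2.64, limma adjusted p = 0.113), followed by Kif20a at 1.67 (0.82 to 2.53, limma adjusted p = 0.266) and Cenpf at 1.60 (0.78 to 2.43, limma adjusted p = 0.267). Mki67 gave 1.55 (0.56 to 2.53, limma adjusted p = 0.394), Top2a 1.72 (0.31 to 3.14, limma adjusted p = 0.561) and Cdk1 1.26 (0.21 to 2.30, limma adjusted p = 0.567). For S phase the smallest p belonged to Rrm1 (0.66 ± 0.29, limma adjusted p = 0.597), Cdt1 (1.36 ± 0.65, limma adjusted p = 0.634) and Mcm6 (0.67 ± 0.34, limma adjusted p = 0.671). The larger counts in CKO hearts at 2 weeks are therefore not shown to differ from those in controls gene by gene.

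The TAC hearts of both genotypes at 2 weeks were also compared directly, a comparison added after the data were seen. Here 2 of 37 members were called higher in CKO hearts, Cep55 (1.34 and 1.16 FPKM in control hearts 11 and 32 against 3.67 and 6.16 FPKM in CKO hearts 13 and 31; 1.59 ± 0.25, limma adjusted p = 0.0166) and Kif20a (2.62 and 1.08 against 4.65 and 7.71 FPKM; 1.55 ± 0.28, limma adjusted p = 0.0278), and 0.413% of all genes were called. These genes were named for their calls, so the separation of CKO from control hearts adds nothing to the calls. Cep55, and Kif23 below, were tested only through TAC hearts. Kif23 came next (1.48 ± 0.30, limma adjusted p = 0.0515), and in S phase Mcm6 (0.76 ± 0.24, limma adjusted p = 0.176), Mcm3 (0.63 ± 0.24, limma adjusted p = 0.264) and Pcna (0.39 ± 0.16, limma adjusted p = 0.318). The median was 1.47 for G2 and mitosis and 0.67 for S phase. The calls changed with the heart left out, where each fit leaves 1 heart in a group. At 4 weeks the comparison of TAC differences called 0 of 37 members and 0.747% of all genes. At an unadjusted p under 0.05 were 0 members, beside 1547 of all 12589 genes. The medians were -0.52 for G2 and mitosis and 0.13 for S phase. The smallest p in S phase belonged to Tyms (-0.63 ± 0.30, limma adjusted p = 0.421), Ccne1 (0.50 ± 0.36) and Mcm3 (-0.45 ± 0.34). In G2 and mitosis it belonged to Cenpf (0.77 ± 0.38), Ube2c (-1.06 ± 0.60) and Cep55 (-0.61 ± 0.35).

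Without TAC the genotypes were close. At the end of tamoxifen limma called 0 of 37 members and 0.0159% of all genes. At an unadjusted p under 0.05 were 431 of all 12589 genes and 1 member. That member was Aurkb, a chromosomal passenger kinase, at 0.0811 and 0.0781 FPKM in control hearts 22 and 23 and 0.493 and 1.01 FPKM in CKO hearts 21 and 24 (1.08 ± 0.34, limma adjusted p = 1). Its difference rests on low FPKM, and Aurkb passed the filter only through the CKO hearts 2 weeks after TAC. Both CKO hearts here are among those with atrial Myl7 and neither control heart is, and the part of this was not tested. The median of the G2 and mitosis genes was 0.13 and that of the S-phase genes 0.04. In sham hearts of both times limma called 0 of 37 (0 at an unadjusted p under 0.05) and 0.00794% of all genes, with medians of 0.15 and 0.08; Cenpf (-0.40 ± 0.19) and Tyms (0.28 ± 0.15) had the smallest p, both with an adjusted p of 1. Between the genotypes of these sham hearts 518 of all 12589 genes were at an unadjusted p under 0.05. Sham hearts at 2 weeks against the end of tamoxifen gave 0 of 37 and 0.913% of all genes. At an unadjusted p under 0.05 were 3 members, beside 1967 of all 12589 genes. Cdc20, an activator of the anaphase-promoting complex, gave 0.60 ± 0.23 (limma adjusted p = 0.224). Mcm4 gave -0.46 ± 0.18 (limma adjusted p = 0.23) and Tyms 0.38 ± 0.15 (limma adjusted p = 0.237).

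Other genes of the cycle were read from lists of 35 replication genes, 47 mitosis genes and 36 regulators of G1 entry and arrest. In CKO hearts 2 weeks after TAC 22 of 30 tested mitosis genes rose and 1 fell (median 1.65), 6 of 29 replication genes rose and 2 fell (median 0.41), and 6 of 30 G1 regulators rose and 2 fell (median 0.08). Some of the 30 mitosis genes passed the filter only through TAC hearts. An example is Pbk, with a mean of 0.450 FPKM in the 12 hearts without TAC. The filter thus favours mitosis genes that are high after TAC, and it partly sets the count and median of this list. No count without the filter is given for it. In the same CKO comparison the largest called differences were as follows. Racgap1, a cytokinesis gene, gave 2.53 ± 0.41 (limma adjusted p = 0.00158) and Kif22, a chromokinesin gene, 2.42 ± 0.44 (limma adjusted p = 0.00266). Among replication genes Tk1, thymidine kinase, gave 1.99 ± 0.30 (limma adjusted p = 0.00104) and Uhrf1, which maintains DNA methylation, 1.58 ± 0.37 (limma adjusted p = 0.0113). In controls at 2 weeks the counts were 4 higher and 1 lower for mitosis, 1 and 5 for replication and 3 and 3 for G1 regulators, each of 29 or 30 tested. Beside the 11.0% of all genes called higher and 12.8% called lower there, the shares called higher for mitosis genes and G1 regulators are near those of all genes. Pbk, a mitotic kinase gene, gave 1.71 ± 0.45 (limma adjusted p = 0.0149) and Spc25, a kinetochore gene, 1.46 ± 0.39 (limma adjusted p = 0.015). Dut, the dUTPase gene, fell by 0.84 ± 0.16 (limma adjusted p = 0.00178) and Rfc5, of the clamp loader, rose by 0.74 ± 0.24 (limma adjusted p = 0.0359). At 4 weeks 0 mitosis genes, 1 replication gene and 2 G1 regulators were called in controls, beside 6.36% of all genes called higher and 6.37% lower. In CKO hearts at 4 weeks limma called 0 in each list. At an unadjusted p under 0.05 were 0 mitosis genes, 3 replication genes and 4 G1 regulators, beside 1601 of all 12589 genes.

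Of the regulators, Foxm1, a transcription factor of G2 genes, was 0.413 and 0.280 FPKM in CKO sham hearts and 1.75 and 4.33 FPKM in CKO TAC hearts 13 and 31 at 2 weeks (1.97 ± 0.40, limma adjusted p = 0.0054), without overlap. In controls it was 0.135 and 0.153 FPKM after sham and 1.15 and 0.549 FPKM after TAC and was not called (1.03 ± 0.40, limma adjusted p = 0.08). Foxm1 had a mean of 0.235 FPKM in the 12 hearts without TAC, under the filter of 0.5 FPKM, so it was tested only through TAC hearts. Ccnd1, the cyclin D1 gene, rose at 2 weeks in controls (0.65 ± 0.21, limma adjusted p = 0.0392) and in CKO hearts (0.96 ± 0.21, limma adjusted p = 0.00765). Ccnd2 rose in controls at 2 weeks (0.52 ± 0.16, limma adjusted p = 0.0268) and at 4 weeks (0.60 ± 0.16, limma adjusted p = 0.0229) and was not called in CKO hearts at 2 weeks (0.08 ± 0.16, limma adjusted p = 0.763). Mycn, a growth regulator, gave 0.92 ± 0.28 in controls (limma adjusted p = 0.0281) and 1.62 ± 0.28 in CKO hearts (limma adjusted p = 0.00212) at 2 weeks. Cdkn1a, the p21 inhibitor gene, was called in none of the 4 TAC comparisons, which gave 0.29, 0.59, -0.20 and -0.09 in controls at 2 and 4 weeks and CKO hearts at 2 and 4 weeks. Mybl2, E2f7 and E2f8 had means under 0.5 FPKM and were not tested; in CKO TAC hearts 13 and 31 at 2 weeks Mybl2 stood at 0.239 and 0.815 FPKM, E2f7 at 0.521 and 1.25 FPKM and E2f8 at 0.823 and 1.05 FPKM, above every sham heart.

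Markers of the heart's cell types also moved, in 3 of the 4 TAC comparisons. In CKO hearts 2 weeks after TAC, 6 of 12 macrophage markers rose, 6 of 10 fibroblast markers rose and 1 fell, 4 of 10 endothelial markers and 3 of 8 smooth muscle and pericyte markers rose, and 7 of 10 cardiomyocyte markers fell, where 10% of all genes were called higher and 9.21% lower. The summed macrophage markers were 489 and 691 FPKM after sham and 857 and 1047 FPKM after TAC, the endothelial sum 419 and 522 against 656 and 705 FPKM, and the fibroblast sum 1347 and 1481 against 1403 and 1660 FPKM. The cardiomyocyte sum was 111926 and 131443 FPKM after sham and 87779 and 101587 FPKM after TAC. Red cell genes summed to 2060 and 2567 FPKM after sham and 2725 and 5412 FPKM after TAC. Of the 3 tested, limma called 0, and 0 were at an unadjusted p under 0.05. In controls at 2 weeks 8 of 10 fibroblast, 5 of 8 smooth muscle and pericyte and 2 of 10 endothelial markers rose, 5 of 10 cardiomyocyte markers fell, and of 12 macrophage markers limma called 0 (4 at an unadjusted p under 0.05), with sums of 476 and 752 FPKM after sham and 868 and 918 FPKM after TAC. With 11.0% of all genes called higher and 12.8% lower there, a count such as that of the endothelial markers is little above the share of all genes. Beside the 4 macrophage markers, 4548 of all 12589 genes were at an unadjusted p under 0.05 there. The fibroblast sum there was 1336 and 1428 against 2036 and 2111 FPKM, so its values in control TAC hearts lay above those in CKO TAC hearts. In controls at 4 weeks, where 0 of 22 G2 and mitosis genes rose, 4 of 10 fibroblast markers rose and 1 fell, and 2 of 12 macrophage, 2 of 6 neutrophil, 1 of 10 endothelial, 1 of 8 smooth muscle and pericyte, 1 of 5 atrial and 1 of 10 cardiomyocyte markers rose, beside 6.36% of all genes. The macrophage sum there was 390 and 405 FPKM after sham and 602 and 640 FPKM after TAC. In CKO hearts at 4 weeks limma called 0 markers of any list. At most 3 in a list were at an unadjusted p under 0.05, beside 1601 of all 12589 genes. No list was at 0 in all hearts, and lymphocyte markers summed to at most 8.20 FPKM. The part of these cell types in the results on division genes was not tested, and the files do not tell in which cells the division genes were read.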

How the data were processed

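RNA of 20 hearts was sequenced, 2 in each of 10 groups. The deposited values are FPKM per gene, made by the authors; the submitters' processing notes name mm10, TopHat2 2.1.1, Bowtie2 and Cuffdiff 2.2.1, and the strand setting and annotation of the counting are not given in the sources used here. From these values log2(FPKM + 0.5) was fitted in limma 3.58.1 (R 4.3.3) with 10 group means, a prior with a trend, 10 residual degrees of freedom and a median of 3.81 prior degrees of freedom. The filter, a mean over all hearts of 0.5 FPKM or more, kept 12589 of 23284 genes and p-values were adjusted over them by the Benjamini-Hochberg method. Absolute depth is unknown; relative depth came from 2125 genes, with 96.3% of low values within 5% of a whole step. The fit was tested on simulated data. Promoter letters, summaries and figures used Python 3.11.15, numpy 2.4.6, pandas 2.3.3 and matplotlib 3.10.9. Gene positions are from GENCODE on mm10 and promoters from RefSeq.

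The members and the other lists were chosen with earlier results of these data known. Named were the 4 called members with the largest differences per phase and TAC comparison, the 3 smallest p per phase elsewhere, and Mki67, Top2a, Cdk1, Ccnb1, Pcna, Mcm3, Ccne1, Ccne2 and Cenpf in TAC comparisons; in comparisons without TAC some were left to the counts. In the other lists Cdkn1a, Ccnd1, Ccnd2, Foxm1, Mybl2, E2f7, E2f8 and the 2 largest called differences were named. Cep55 in the TAC comparison of CKO hearts, and Mcm2, Mcm4 and Mcm7 there, were named after their values were seen. The comparison of genotypes among TAC hearts at 2 weeks was added after seeing the data. Alternatives were other pseudocounts, filters, normalizations and priors, only the groups compared, no hearts with Myl7 of at least 10 FPKM, and each heart left out, where the remaining heart of a group takes its spread from the rest. The labels number the hearts but do not describe how they were collected, so p-values measure the spread between these samples.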

Additional observations from a re-analysis of the deposited data

Results flagged for a closer look

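The response to TAC differed between the 2 times in CKO hearts by a test of the difference itself, with 18 members called in limma, all lower at 4 weeks, beside 6.54% of all genes called in either direction. The log2 differences, 4 weeks minus 2 weeks, were -2.91 for Cep55, -2.69 for Kif23, -2.59 for Nusap1, -2.65 for Mki67, -3.05 for Top2a and -2.29 for Cdk1. Top2a and Cdk1 each lost their call in 4 of 8 fits with 1 heart left out (hearts 3, 8, 15 and 31), and Mki67 in that without heart 31. These 3 also lost it without the hearts with Myl7 of at least 10 FPKM, and all 6 with only the groups compared. The hearts of the 2 times are different animals, and the value at 2 weeks rests on hearts 13 and 31.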

How the results depend on the processing

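With 2 hearts a group, single hearts and the pooled spread set many calls. Fits with 1 heart left out keep 1 heart in a group. Calls over all genes under the alternatives are not given here, so a lost member call is not set beside the loss over all genes. Members called after TAC in controls at 2 weeks, 3 in S phase and 11 in G2 and mitosis, became 1 and 1 with a filter of 3 FPKM, 0 and 3 with only the groups compared, and 0 and 1 without the hearts with Myl7 of at least 10 FPKM; leaving out 1 heart gave 0 to 3 and 1 to 8. In controls at 4 weeks the 2 S-phase calls became 1 with a pseudocount of 1 FPKM, with a filter of 3 FPKM and with quantile normalization, and 0 with only the groups compared and without the Myl7 hearts, and 0 to 1 with 1 heart left out. The 1 G2 and mitosis call there became 0 with a filter of 3 FPKM and 1 to 2 with 1 heart left out. In CKO hearts at 2 weeks the 8 S-phase calls became 5 with a pseudocount of 0.1 FPKM, 3 with a filter of 3 FPKM, 0 with only the groups compared, 4 without the Myl7 hearts and 0 to 12 with 1 heart left out. The 21 G2 and mitosis calls became 1 with a filter of 3 FPKM, where 1 member was tested, 0 with only the groups compared and 18 to 21 with 1 heart left out. The 18 calls for the change with time in CKO hearts became 1 with a filter of 3 FPKM, 0 with only the groups compared, 6 without the Myl7 hearts and 3 to 25 with 1 heart left out. The 2 calls between genotypes among TAC hearts at 2 weeks became 0 with a pseudocount of 0.1 FPKM, 9 with 1 FPKM, 4 with no filter, 0 with a filter of 3 FPKM, 8 with quantile normalization, 4 with a prior without trend, 0 with only the groups compared, 1 without the Myl7 hearts and 0 to 13 with 1 heart left out. The filter of 3 FPKM and the fits of fewer hearts test fewer genes or samples by construction; for the others the cause was not tested. No value changed its direction while called. Of the single-member values 1864 kept their side of the threshold, 116 lost their call and 22 gained one. The CKO comparison at the end of tamoxifen could not be fitted without the Myl7 hearts, since these are both of its CKO hearts. No paired analysis was possible because the hearts of different groups share no number. Low FPKM limit Ccnb1, Bub1, Ttk, Ect2 and Cdc6 most.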
